A study of Arabidopsis thaliana with 8 samples.

Results

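HAM1 (AT2G45160), HAM2 (AT3G60630) and HAM3 (AT4G00150), the 3 HAIRY MERISTEM genes whose transcripts are targets of miR170 and miR171, were compared between wild-type and janus-2 inflorescences of Arabidopsis. They were chosen by locus id, and all 3 were present among the 28775 genes of the mRNA tables and among the 22990 genes that passed the filter on low counts. The 8 entries named miR170 or miR171, of 427 entries in the small RNA tables, were set beside them. Col-0 is the wild-type accession (WT). The mutant, labelled janus, is janus-2, a hypomorphic CRISPR/CAS9 allele of JANUS (AT2G18510) with a small deletion in an exon, backcrossed to Col-0 to remove the transgene. JANUS is the Arabidopsis homolog of the U2 snRNP assembly factor SF3B4. Plants of both genotypes were untreated and grown in long days, and plant age is not given in the sources used here. Homozygous janus-2 plants are sterile, and the mutant group stands for 1 allele. Total RNA came from whole inflorescences, and each genotype gave 2 mRNA and 2 small RNA libraries, described as biological replicates.

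HAM proteins belong to the GRAS family of transcription regulators, which also holds the DELLA proteins, SCARECROW and SHORT-ROOT. In the shoot meristem HAM proteins act with the homeodomain protein WUSCHEL (WUS) to keep stem cells undifferentiated, and plants that lack several HAM genes stop producing organs. The mature 3p strands of miR170 and miR171 pair with a site in the coding sequence of HAM1, HAM2 and HAM3 and guide ARGONAUTE1 (AGO1) to cut the transcript. HAM4 (AT4G36710), the remaining HAM gene, lacks that site. Since JANUS was studied as a factor in miRNA production, the comparison asks whether the level of these targets, and of the miRNAs that cut them, differs between the genotypes.

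The mRNA libraries held between 56360882 and 65578130 counts on genes, and the small RNA libraries held between 1950664 and 2160372 counts on miRNAs. JANUS transcripts had 3107 and 3579 counts in WT and 1158 and 1141 counts in janus-2, with a log2FC (log2 fold change of janus-2 over Col-0) of -1.53. All 6 genes of a floral organ identity list were found in every mRNA library. In CPM, counts scaled to the same library size, the means of Col-0 and janus-2 were 102 and 112 for AG and 197 and 203 for SEP3, which were not called by the rule given below. Of the 6 genes 0 were called higher and 2 lower, the petal and stamen genes PI (-1.46) and AP3 (-0.86), and AP1 had -0.46. Over all tested genes 27.2% were called lower. Other cell types differed. Against that share, all 9 tested genes of a pollen list were called lower in janus-2 (1 more, BUPS1, was at 0 counts in all 4 libraries). Their summed level was between 2454 and 2474 CPM in WT and between 18.2 and 19.0 CPM in janus-2. VGD1 alone had a mean of 1902 CPM in WT, and the falls were uneven. The log2FC was -9.74 for ACA9, and -1.59 for ANX1 and -1.28 for CHX21. CHX21 had few counts (42 and 21 in WT, 13 and 13 in janus-2) and did not pass in DESeq2 (adjusted p = 0.0653). All 10 genes of a list for the tapetum, the anther layer that feeds pollen, were called lower too, with a summed level between 626 and 634 CPM in WT and between 79.4 and 79.6 CPM in janus-2. The pollen regulator AGL66 (1 and 3 counts) and the tapetum regulator DYT1 (0 and 1 counts) were at or under a floor of 3 counts in both janus-2 libraries. In whole inflorescences, fewer cells of a type and less RNA per cell cannot be told apart, and the part of the missing pollen and tapetum RNA in the values below was not tested.

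HAM1 and HAM3 had higher levels in janus-2 than in Col-0, whereas the level of HAM2 differed by less than the spread between libraries. The differences were small. A gene was called when its adjusted p in edgeR's quasi-likelihood test was 0.05 or less and it changed 1.5-fold or more. By this rule 0 of the 3 HAM genes were called, against 18.5% of all tested genes called higher and 27.2% called lower. HAM1 was just below the fold threshold, at 1.49-fold. When the adjusted p alone was used, HAM1 and HAM3 passed as higher, against 40.6% of all tested genes, and 0 passed as lower, against 42.5%. The adjusted p thus selected many genes in these libraries, since 83.1% of all tested genes passed it in either direction.

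HAM1, also known as LOST MERISTEMS1 or SCARECROW-LIKE 27, had 2780 and 3277 counts in the Col-0 libraries and 4609 and 4378 counts in the janus-2 libraries. Scaled by the trimmed mean of M values (TMM), these were 49.1 and 49.7 CPM in WT and 73.0 and 74.6 CPM in janus-2. Both janus-2 libraries were above both Col-0 libraries, and the libraries of a genotype lay close together. The mean was 49.4 ± 0.380 CPM in WT and 73.8 ± 1.17 CPM in janus-2 (SD, n = 2). The log2FC was 0.58 (SE 0.050 by DESeq2, edgeR adjusted p = 1.2e-55). The threshold of 1.5-fold corresponds to 0.585 on this scale, and HAM1 crossed it when the filter on low counts was dropped (0.585596) and when Col-0 replicate 2 (0.585481) or janus-2 replicate 1 (0.60) was left out.

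HAM2, or LOST MERISTEMS2, had 2833 and 3506 counts in WT and 3105 and 2978 counts in janus-2. The scaled levels were 50.1 and 53.1 CPM in WT and 49.1 and 50.7 CPM in janus-2. Unlike the other HAM genes, HAM2 had overlapping groups, with janus-2 replicate 2 above Col-0 replicate 1. Its log2FC was -0.048 (edgeR adjusted p = 0.243), and the DESeq2 95% interval ran from -0.16 to 0.059. A change in janus-2 as large as that of HAM1 was thus outside the interval of HAM2. Overlap of this kind was uncommon among genes in these libraries, since the genotypes did not overlap for 90.8% of the tested genes. With upper-quartile normalization the value for HAM2 was -0.12 and passed the adjusted p (edgeR, 0.00426), without reaching the fold threshold.

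HAM3, or LOST MERISTEMS3, had the fewest counts of the 3 genes, with 1031 and 1238 in WT and 1566 and 1481 in janus-2. These correspond to 18.2 and 18.8 CPM in WT and to 24.8 and 25.2 CPM in janus-2. The groups did not overlap. The log2FC was 0.44, or 1.35-fold (SE 0.081 by DESeq2, edgeR adjusted p = 6.33e-13). Together the 3 genes summed to between 117 and 122 CPM in WT and between 147 and 151 CPM in janus-2. HAM4, the HAM gene outside miR171 control, had 752 and 804 counts in WT and 944 and 922 counts in janus-2. Its level was 12.7 ± 0.780 CPM in WT and 15.3 ± 0.545 CPM in janus-2 (SD, n = 2). The log2FC of 0.27 passed the adjusted p (edgeR, 0.000376) and not the fold threshold. The value of HAM4 lay between those of HAM2 and HAM3.

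**Figure D1:**
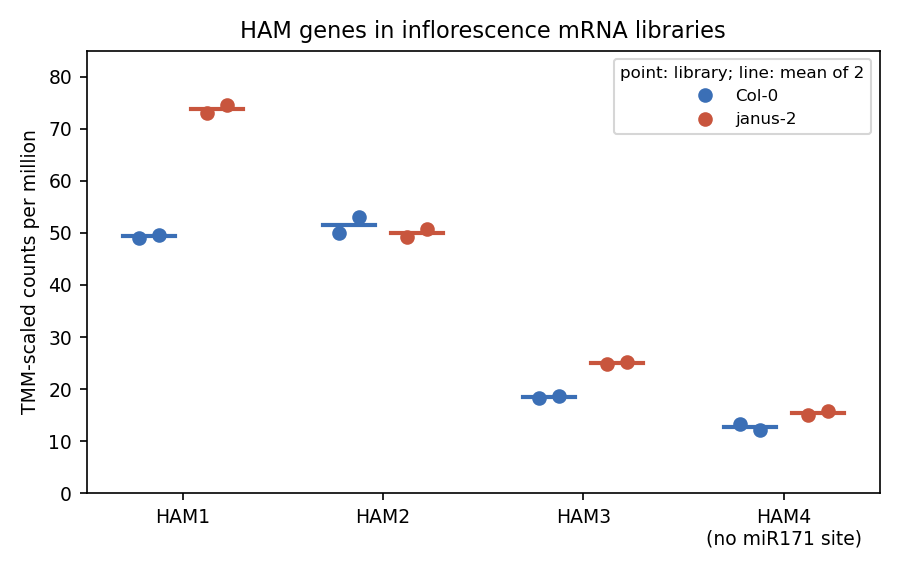
Levels of HAM1, HAM2, HAM3 and HAM4 in the 4 mRNA libraries, as TMM-scaled CPM, with 1 point per library and a line at the mean of 2. The janus-2 libraries lie above the Col-0 libraries for HAM1 (73.0 and 74.6 against 49.1 and 49.7 CPM), HAM3 and HAM4, and the groups overlap for HAM2. Heights of different genes are not corrected for gene length.

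Ratios of 2 HAM genes within a library do not depend on how libraries are scaled. The count of HAM1 divided by that of HAM2 was 0.981 and 0.935 in the Col-0 libraries and 1.48 and 1.47 in the janus-2 libraries. On the log2 scale this ratio was higher in janus-2 by 0.63, against a standard deviation between libraries of 0.050 in WT and 0.0099 in janus-2. The ratio of HAM2 to HAM3 was 2.75 and 2.83 in WT and 1.98 and 2.01 in janus-2, lower by 0.48 on the log2 scale. Both ratios that include HAM2 differed more between the genotypes than the ratio of HAM1 to HAM3. The latter was 2.70 and 2.65 in WT and 2.94 and 2.96 in janus-2, higher by 0.14 on the log2 scale. For all 3 ratios the groups did not overlap. Single genes did not overlap either for 90.8% of those tested, and the share over ratios of other gene pairs was not computed. The exact two-sided permutation test gave p = 0.333 for each ratio, also after adjustment over the 3 ratios, and this is the smallest p that 2 against 2 libraries can give. Leaving out each library in turn gave differences between 0.59 and 0.66 for HAM1 over HAM2, between 0.13 and 0.16 for HAM1 over HAM3, and between -0.50 and -0.46 for HAM2 over HAM3.

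**Figure D2:**
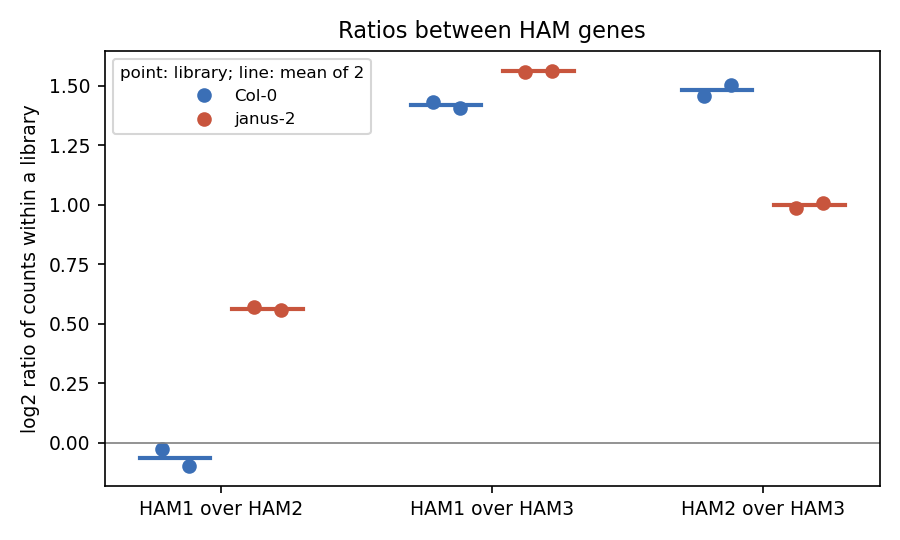
Log2 ratio of the counts of 2 HAM genes within each mRNA library (y axis), for the 3 pairs (x axis), with 1 point per library and a line at the mean of 2. The ratio of HAM1 to HAM2 rises above 0 in both janus-2 libraries (0.57 and 0.56), the ratio of HAM2 to HAM3 is lower in janus-2, and the ratio of HAM1 to HAM3 differs least, by 0.14.

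Among all tested genes the changes of the HAM genes were moderate. The median log2FC of the 22990 genes was -0.019, and 80.8% of them had a lower value than HAM1, 75.0% a lower value than HAM3 and 48.5% a lower value than HAM2. A change of at least the size of that of HAM1, in either direction, was found in 10830 genes (47.1%). The profile most like that of HAM1 over the 4 mRNA libraries, by the Euclidean distance of log2 CPM centred on each gene's mean, was that of AT3G07540 (distance 0.0096), followed by TBL18 (0.013) and AT5G37475 (0.014). For HAM2 the nearest were AT2G05590 (0.015), AT3G32930 (0.015) and SGT (AT3G07020, 0.016), and for HAM3 they were CYTC-1 (AT1G22840, 0.012), LRL1 (AT2G24260, 0.015) and AT1G05380 (0.015). Such profiles were common. Of 14400 candidates with a mean of at least 10 CPM, 879 lay within a distance of 0.1 of HAM1, 863 within that of HAM2 and 1036 within that of HAM3. With 2 genotypes and 4 libraries this measure mostly ranks genes by the size of their difference between genotypes.

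Next the miRNAs that cut HAM transcripts were examined. In the small RNA libraries 3 of the 8 miR170 and miR171 entries were lower in janus-2 when only the adjusted p was used, against 14.1% of the 304 tested miRNAs called lower and 18.1% called higher. The other 5 entries did not pass. Some of these entries had almost equal counts in every library, as reads counted in both would give. The counts of miR170-5p and miR171a-5p differed by at most 0.269% in any library, and those of miR171b-3p and miR171c-3p by at most 0.16%, so that each pair is taken as 1 measurement and the 3 lower entries stand for 2.

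miR171a-3p, the strand that guides cutting of the HAM transcripts, had 60406 and 53008 counts in WT and 24237 and 23362 counts in janus-2. Its level was 25282 ± 807 CPM in WT and 12523 ± 443 CPM in janus-2 (SD, n = 2). The level in janus-2 was therefore 2.02-fold lower, with a log2FC of -1.01 (SE 0.31 by DESeq2, edgeR adjusted p = 0.000532). This entry was called lower under every alternative tried, with values between -1.38 and -0.96. The passenger strand was lower as well. miR171a-5p had 7796 and 8430 counts in WT and 3816 and 2873 counts in janus-2, with a log2FC of -1.05 (edgeR adjusted p = 0.0162), and it was no longer past the threshold without janus-2 replicate 2 (-0.94, edgeR adjusted p = 0.115, in a range from 0.000631 to 0.115 over the alternatives). The entry miR170-5p has almost the same counts and repeats this measurement, so that the call is lost there too.

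miR171b-3p and miR171c-3p, with almost equal counts, had a smaller difference. miR171b-3p, whose sequence pairs with the same region of the HAM transcripts, had 30278 and 28021 counts in WT and 19368 and 19181 counts in janus-2. Both janus-2 libraries were lower, at 9757 and 10539 CPM against 12958 and 13063 CPM in Col-0. The log2FC of -0.36 did not pass the threshold (edgeR adjusted p = 0.136), and the DESeq2 95% interval ran from -1.04 to 0.14. miR170-3p had 1305 and 1236 counts in WT and 1171 and 910 counts in janus-2, with overlapping groups and a log2FC of -0.058 (edgeR adjusted p = 0.92). Its DESeq2 value was -0.145 with a wide 95% interval, from -0.79 to 0.50, so that changes within that range are not excluded.

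The scarce 5p strands of miR171b and miR171c had values of opposite sign. miR171b-5p had 257 and 307 counts in WT and 166 and 111 counts in janus-2, a log2FC of -0.81 (edgeR adjusted p = 0.11). miR171c-5p had 180 and 208 counts in WT and 321 and 261 counts in janus-2, a log2FC of 0.81 (edgeR adjusted p = 0.094). It was the 1 entry of the 8 that was higher in the mutant in every pairing of libraries, and neither 5p entry passed the threshold. Groups did not overlap in 7 of the 8 entries, against 67.8% of the tested miRNAs. These 7 include both pairs with almost equal counts, each taken as 1 measurement, so that the count overstates the number of separate measurements. The count of the 3p entry of miR171c divided by that of its 5p entry was 168 and 135 in WT and 60.4 and 73.6 in janus-2. For miR171a the same ratio was 7.75 and 6.29 in WT and 6.35 and 8.13 in janus-2, with overlapping groups. For miR171b it was 118 and 91.3 in WT and 117 and 173 in janus-2, also overlapping. For miR170, whose 5p entry had more counts than its 3p entry, the ratio was 0.168 and 0.147 in WT and 0.308 and 0.317 in janus-2, without overlap. The 5p entries of miR170 and miR171a have almost equal counts, as do the 3p entries of miR171b and miR171c. These ratios therefore cannot be read as strand ratios of single loci. Those of miR171b and miR171c differ almost only through their scarce 5p counts.

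**Figure D3:**
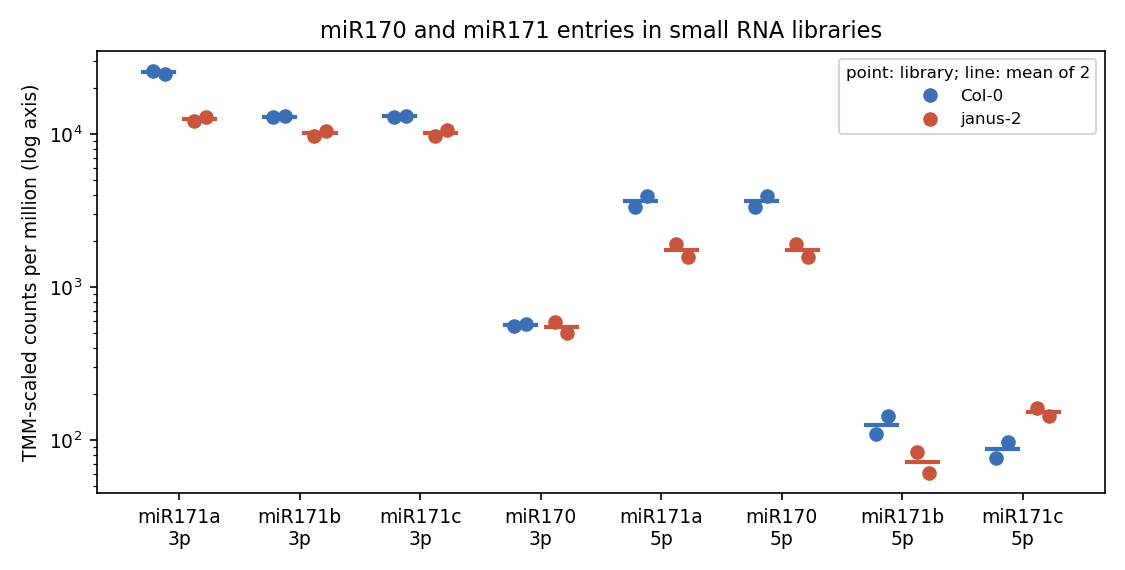
Levels of the 8 miR170 and miR171 entries in the 4 small RNA libraries, as TMM-scaled CPM on a log axis, with 1 point per library and a line at the mean of 2. miR171a-3p lies at 25282 CPM in WT and 12523 CPM in janus-2, the pair of miR171b-3p and miR171c-3p shows a smaller gap, and miR171c-5p is higher in janus-2.

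How libraries were scaled bears on these entries. TMM takes most miRNAs as unchanged, and the median log2FC of all tested miRNAs was 0.11 with TMM and -0.23 when counts were divided by all aligned reads. With the latter, 6 of the 8 entries were lower and passed the threshold, against 83 lower entries among all 304 miRNAs. These 6 include both pairs with almost equal counts and so stand for fewer measurements. miR171a-3p then had 985 and 764 RPM (counts scaled to all aligned reads) in WT and 336 and 336 in janus-2 (log2FC -1.38), and miR171b-3p had 494 and 404 in WT and 268 and 276 in janus-2 (-0.72, edgeR adjusted p = 0.0352). miR171c-5p kept a positive value of 0.47 (edgeR adjusted p = 0.381), so that it stood apart from the other 7 entries under both scalings.

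The loci that encode these miRNAs were measured in the mRNA tables, with few counts. MIR171A (AT3G51375) had 16 and 22 counts in WT and 3 and 5 counts in janus-2, and its log2FC of -2.20 was called lower (SE 0.94 by DESeq2). MIR171B (AT1G11735) had 64 and 53 counts in WT and 33 and 24 counts in janus-2, and was called lower at -1.04. Of the 3 tested loci 2 were thus called lower, against 27.2% of all tested genes. Each call was lost without 1 of the libraries. That of MIR171A was lost without janus-2 replicate 1 (-1.83, edgeR adjusted p = 0.0524) and that of MIR171B without Col-0 replicate 1 (-0.78, edgeR adjusted p = 0.115). MIR171C (AT1G62035) had 11 and 24 counts in WT and 15 and 14 counts in janus-2, with overlapping groups. MIR170 (AT5G66045) had between 1 and 3 counts in every library and was not tested. Since miR170-5p and miR171a-5p have almost equal counts, as do miR171b-3p and miR171c-3p, these strands cannot be assigned to single loci here.

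HAM1, HAM2 and HAM3 were then set beside the rest of the GRAS family. The list of 30 GRAS genes beside HAM1, HAM2 and HAM3 includes HAM4. Of these 29 were tested, and 6 were called higher and 6 lower in janus-2, or 41.4% against 45.7% of all tested genes. Their median log2FC was 0.18, beside -0.019 for all tested genes. In order of fold change, 23 of these 29 genes had a lower value than HAM1, 20 a lower value than HAM3 and 12 a lower value than HAM2. The HAM genes therefore lay inside the range of the family, and HAM1 came right after the 6 genes called higher. The largest rise was that of SCL3, a GRAS protein that promotes gibberellin responses, with 1069 and 1227 counts in WT and 6057 and 5737 in janus-2 (log2FC 2.37). SCL32 (1.71, from 7 and 6 counts in Col-0), SCL30 (1.53) and SCL13 (1.37), which acts in phytochrome B signalling, followed. The largest falls were those of SCL29 (-2.45, with 5 and 3 counts in janus-2), SCL26 (-1.53, with 8 and 20 counts in janus-2), and the DELLA genes RGL3 (-1.49) and RGL1 (-1.24), which encode repressors of gibberellin responses. The calls of SCL32 and SCL26 were lost without janus-2 replicate 1 (1.52 and -0.96), and that of SCL32 also without Col-0 replicate 2 (1.49).

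**Figure D4:**
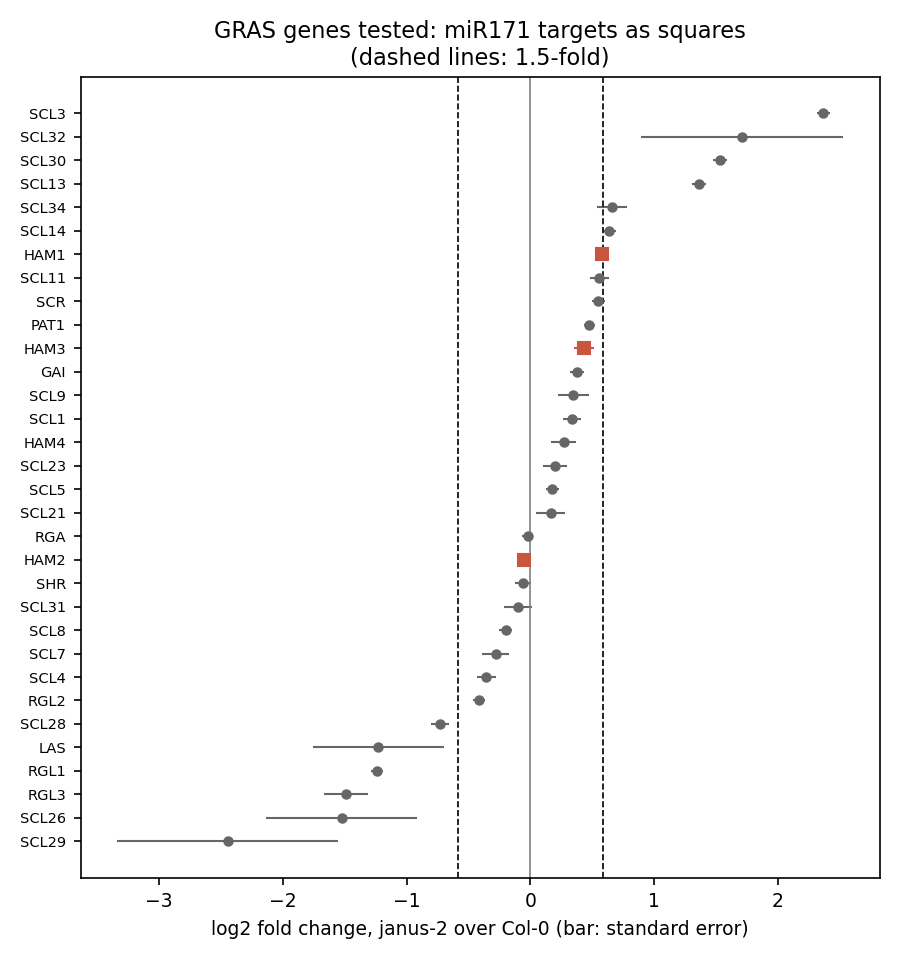
Log2 fold change of janus-2 over Col-0 for the 32 tested GRAS genes in order of size, with the standard error from DESeq2 as bars, squares for HAM1, HAM2 and HAM3, and dashed lines at 1.5-fold in each direction. HAM1 (0.58) sits at the right dashed line below the 6 genes called higher, HAM3 at 0.44 and HAM2 near 0.

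Of 13 tested genes of a list of shoot meristem regulators, 8 were not called. The other 5, 3 higher and 2 lower, were 38.5% of the list against 45.7% of all tested genes, and the median log2FC was 0.011. WUS, the homeodomain partner of HAM proteins, had 1032 and 1037 counts in WT and 120 and 107 counts in janus-2, and its log2FC was -3.18 (SE 0.15 by DESeq2). Its level was 17.0 ± 1.78 CPM in WT and 1.86 ± 0.0537 CPM in janus-2 (SD, n = 2). WUS thus had the largest fall of the list while none of the 4 HAM genes was called lower. WUS is also active in developing anthers and ovules, and the counts do not separate these from the meristem.

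Other members of the meristem list differed less. WOX4, a WUSCHEL relative of the vascular cambium that also binds HAM proteins, was called higher at 0.62, a call lost with upper-quartile normalization (0.55). CORYNE (CRN), a membrane pseudokinase of CLAVATA3 signalling, was called lower at -0.89. The receptor kinase genes CLV1 (-0.26) and BAM1 (-0.25) and the meristem homeobox gene STM (-0.24) passed the adjusted p as lower. The homeobox gene KNAT1 (0.22) and the receptor kinase gene BAM2 (0.12) passed it as higher. None of these reached the fold threshold, and BAM2 did not pass with upper-quartile normalization (0.053, edgeR adjusted p = 0.173). CLV3, the stem cell peptide whose expression WUS and HAM proteins shape, had between 0 and 2 counts in every library, at or under the floor in all 4, and was not tested. Whether its reads were lost to the ambiguous class cannot be read from these tables, so that the count does not show that CLV3 was not expressed. The organ boundary genes CUC1 (1.56) and CUC3 (1.13) were called higher, and CUC2 (0.011) had overlapping groups. CUC1 and CUC2 are targets of another miRNA, miR164.

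Protochlorophyllide oxidoreductases carry out the light-dependent step of chlorophyll synthesis, and HAM proteins repress PORC in Arabidopsis. PORC had 6263 and 7047 counts in WT and 7549 and 6905 in janus-2. Its log2FC of 0.13 passed the adjusted p (edgeR, 1.8e-05) as higher, as did 40.6% of all tested genes, and did not reach the fold threshold. With upper-quartile normalization it was 0.057 and did not pass (edgeR adjusted p = 0.0581). PORA (2.83) and PORB (0.74) were called higher, so that 2 of the 3 genes were called, against 18.5% of all tested genes called higher.

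As another set of miRNA targets in the meristem, the HD-ZIP III genes, which set the upper side of organs and are cut by miR165 and miR166, were compared. Of 5 tested genes 1 was called higher, the vascular gene ATHB8 (0.76), or 20% beside 18.5% of all tested genes, and the median log2FC was 0.28. PHV (0.39), ATHB15 (0.28) and REV (0.24) passed the adjusted p as higher without reaching the fold threshold. PHB (-0.084) passed the adjusted p as lower in edgeR and not in DESeq2 (adjusted p = 0.0719). The differences in HAM1 and HAM3 were thus of a size also found among these genes, and whether the 2 families differ was not tested. Of the 5 core genes of the miRNA pathway, 0 were called, against 45.7% of all tested genes, and all 5 passed the adjusted p alone, against 83.1%. AGO1, the slicer that uses miR171, had a mean of 340 CPM in WT and 232 CPM in janus-2, a log2FC of -0.55 (edgeR adjusted p = 8.53e-128), and with upper-quartile normalization it was called lower at -0.62. The values of DCL1 (-0.37) and HEN1 (-0.33) were below 0 and those of HYL1 (0.54) and SE (0.56) above 0, all past the adjusted p and not the fold threshold, except that SE was called higher at 0.59 without janus-2 replicate 2.

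**Figure D5:**
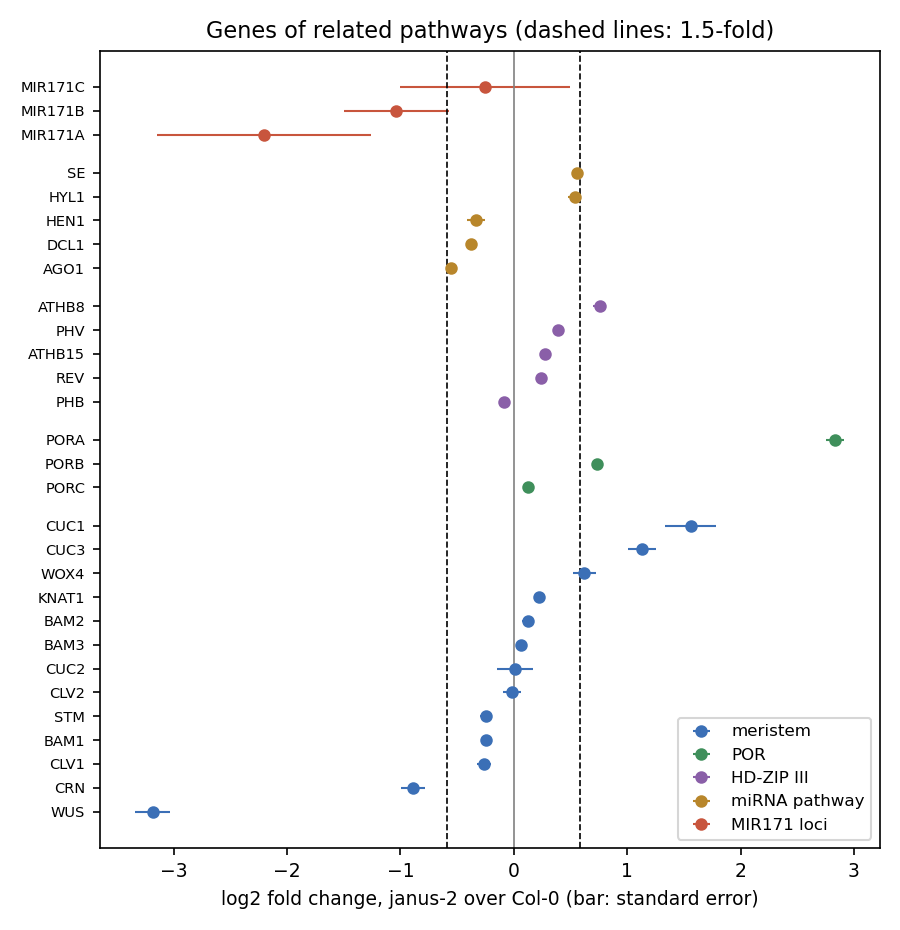
Log2 fold change of janus-2 over Col-0 (x axis) for tested genes of the meristem, protochlorophyllide oxidoreductase (POR), HD-ZIP III, miRNA pathway and MIR171 lists, with the standard error from DESeq2 as bars and dashed lines at 1.5-fold in each direction. WUS (-3.18) and MIR171A (-2.20) lie farthest to the left and PORA (2.83) farthest to the right, and most other genes lie between the dashed lines.

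Read counts per gene do not separate intact HAM transcripts from the pieces left after cutting by miR171, and neither cut sites nor proteins were measured in these tables. The lower miR171a-3p and the higher HAM1 and HAM3 were measured in different libraries of the same genotypes, and with 2 libraries per group their relation across samples could not be tested.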

How the data were processed

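For each of the 8 libraries (2 per genotype and assay) the authors deposited a table of raw counts, with 1 row per gene or per mature miRNA. Bowtie, HTSeq and TAIR10 are named in the submitters' processing notes, and versions, annotation and strand setting are not given in the sources used here. How reads that match several miRNAs were counted is not stated, and 2 pairs of the entries described have almost equal counts. The rows for unassigned reads stayed out of totals and tests (between 1.11% and 1.13% of aligned mRNA reads outside genes and between 2.15% and 2.34% ambiguous, and between 96.4% and 97.1% and between 0.0652% and 0.0825% in small RNA). A floor of 3 counts is between 0.0457 and 0.0532 CPM for mRNA and between 1.39 and 1.54 CPM for small RNA.

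Counts were tested in R 4.3.3 with edgeR 4.0.16 (filterByExpr, TMM, estimateDisp, glmQLFit, glmQLFTest) over all features of an assay, with Benjamini-Hochberg adjustment. The study used Ballgown for genes, with a fold threshold of 1.5, which was kept here, and EdgeR with TMM for miRNAs. Standard errors and 95% intervals are Wald values of DESeq2 1.42.0. The fits were also run on simulated counts as a check of the code, and no result given here rests on that run. The common biological coefficient of variation fitted by edgeR was 2.26% for mRNA and 25.5% for small RNA. It is 1 value over all features of an assay, beyond counting noise, and single features can differ from it. Replicates differed by more than the sampling noise (chi-square per degree of freedom between 2.32 and 148). The sources call them biological replicates without naming the plants pooled. The p-values therefore set the genotype difference against the spread between these libraries, estimated with the help of all features. They do not show how plants vary.

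The members and lists were chosen with earlier results of these data known. Genes were named by rule (all HAM genes, all miR170 and miR171 entries, JANUS, the MIR loci, the 4 largest rises and 4 largest falls of the GRAS list, members of the short lists, and the 3 nearest profiles). Symbols came from the RefSeq table of TAIR10.1, which matched 28009 of 28775 genes. Its coordinates are not printed, since the assembly names differ. Alternatives changed the scaling, tool, filter, fold threshold, replicate block and each library in turn. No sequence source was used, and no sequences are shown. Figures were drawn with matplotlib 3.10.9.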

Additional observations from a re-analysis of the deposited data

How the results depend on the processing

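HAM2 was called under no alternative. HAM1 was called higher without the filter on low counts (0.585596 on the log2 scale) and, leaving out 1 library at a time, its value ran from 0.567 to 0.599, with 0 to 1 of the 3 HAM genes called. Without a fold threshold HAM1 (0.579) and HAM3 (0.435) passed, so that the HAM count was 2, against 1 without the filter. That setting also gave 9324 genes higher and 9778 lower, 15 GRAS genes higher and 10 lower, 5 meristem genes higher and 5 lower, 4 HD-ZIP III genes higher and 1 lower, and 2 miRNA pathway genes higher and 3 lower. With upper-quartile normalization 1 miRNA pathway gene was lower, 67 miRNAs and 6 of the 8 miR170 and miR171 entries were lower, and BAM3 (-0.0057) and CUC2 (-0.058) changed sign. With table totals 5 entries were lower and CUC2 was -0.0051, and scaling by all aligned reads gave 83 lower miRNAs and 6 lower entries. In each of these settings the lower entries include both pairs with almost equal counts. DESeq2 called 36 miRNAs higher. Leaving out 1 library at a time gave 36 to 71 miRNAs higher, 1 to 3 entries lower, and 0 to 1 miRNA pathway genes higher. Over the same settings CLV2 ran from -0.061 to 0.035, CUC2 from -0.043 to 0.071, MIR171C from -0.61 to 0.29, and miR170-3p from -0.21 to 0.034.

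The replicate numbers did not pair the samples, since the deviations of libraries with the same number had a correlation of -0.00947 for mRNA and -0.181 for small RNA. With the replicate block 4224 genes were higher and 6180 lower, 0 HAM genes were called, 49 miRNAs were higher and 41 lower, and 1 entry, miR171a-3p, was lower. The crossed pairing, chosen after seeing the data, gave 58 miRNAs higher and 50 lower, with 3 entries lower. The cause of these differences was not tested. With 2 libraries per group no outlier test was made. The fitted coefficient of variation of 25.5% for small RNA limits what could be detected there.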

Other observations

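The RefSeq table of TAIR10.1 lists 0 genes that overlap HAM1, HAM2 or HAM3, which lie on chromosomes 2, 3 and 4. Genes of the ATG8 family, which encode ubiquitin-like proteins of autophagy, lie next to 2 of the 3 HAM genes in that table. ATG8E, next to HAM1, had a log2 fold change of -0.63, and ATG8G, next to HAM2, had 0.093. CDS4, on the other side of HAM1, had 0.52. These neighbours were named for their position after the values had been seen, and their relation to the HAM genes was not tested.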
